A study of Drosophila melanogaster with 4 samples.

Results

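The genes described here are 8 core components of Hedgehog signalling, hh, ptc, smo, ci, ihog, cos, fu and Su(fu), chosen by their symbols in the deposited count table, which holds 17806 named genes. All 8 were found and all passed the filter on low counts. The series used CLIP-seq, in which RNA crosslinked to a protein is recovered with it and sequenced, for PABP, the protein bound to the poly(A) tails of mRNAs, in adult Drosophila melanogaster. Each sample was made from 200 flies, 100 of each sex, powdered whole and irradiated with ultraviolet light. The 2 PABP IP libraries hold the RNA recovered with PABP on FLAG beads, which the labels assign to intestinal progenitor cells, and the 2 input libraries hold RNA of the whole extract, assigned to all cells. The labels give the developmental stage as adult and name no genotype, strain, age, treatment or driver for the precipitated protein in either group, nor whether the samples of a group were collected independently. The p-values therefore cover only how far these samples differed, and that spread may be technical. Without a control precipitation or total RNA of progenitors, transcript abundance in progenitors, the strength of PABP binding and RNA held by the beads cannot be told apart in a difference between IP and input. In such bulk samples, fewer cells of a type and less RNA per cell cannot be told apart either.

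Hedgehog is a secreted, lipid-modified signal. In cells that receive none, the receptor Patched keeps the membrane protein Smoothened inactive. The transcription factor Cubitus interruptus (Ci), of the Gli family, is then phosphorylated in a complex built on the kinesin-like scaffold Costal. Phosphorylated Ci is cut to a repressor. When the ligand binds Patched and its co-receptors, Smoothened is released, the kinase Fused becomes active, and full-length Ci switches on target genes, ptc among them. In the adult fly midgut the pathway has been studied for its part in stem cell division after injury and in progenitor differentiation.

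Counts of named genes totalled 8987420 and 10761349 in PABP IP 1 and 2 and 2464629 and 3346231 in input 1 and 2, so the input is the shallower side of each comparison. The labels were set beside markers chosen with earlier results of these data known, so the markers are no independent check. All 8 tested of 9 intestinal progenitor markers were higher in the IP, with a summed level of 9849 and 10741 CPM (counts scaled to a common library size by TMM) in the IP libraries against 182 and 179 in the input libraries. Of 9 enterocyte markers, genes of the absorptive gut cells, 8 were lower and 1 higher (summed 1564 and 1182 CPM in the IP, 4208 and 4380 in the input). All 6 tested of 7 muscle markers were lower (972 and 680 against 3217 and 3587 CPM), as were all 7 ovary markers (899 and 742 against 4129 and 4254 CPM) and all 3 fat body markers (506 and 420 against 1843 and 1623 CPM). Enteroendocrine markers split into 2 higher, 2 lower and 4 not called of 8 (183 and 197 against 134 and 114 CPM), and 3 of 5 tested neuronal markers were lower (96.7 and 122 against 191 and 154 CPM). Of 3 tested testis markers 2 were lower and 1 higher (95.8 and 87.2 against 206 and 197 CPM). Mlp84B, a muscle marker, and fzo, a testis marker, were at 0 in all 4 libraries. The part of these other cell types in the results below was not tested.

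The 8 genes moved in different directions. The gene of the transcription factor Ci was the most strongly raised of the 8 in the IP, 4.33-fold, and the genes of the receptor ptc and the co-receptor ihog were each 2.14-fold higher. The transducer gene smo was 1.22-fold higher, a difference called at the edge of the threshold. The kinase gene fu and the inhibitor gene Su(fu) were 1.36-fold and 1.38-fold lower, and the scaffold gene cos and the ligand gene hh were not called. In all, 4 of the 8 were higher and 2 lower at an adjusted p below 0.05 (edgeR quasi-likelihood test, adjusted over all 9989 genes tested). Among all genes tested, 37.1% were called higher and 38.8% lower, and with 8 genes neither count stands far from that background. Their median log2 fold change of 0.04 stood beside a median of -0.10 for all genes tested. The IP and input libraries did not overlap for any of the 8 genes, with 4 above (42.3% of all genes tested) and 4 below (46.3%), and they did not overlap for 88.6% of all genes tested.

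These directions depend on where the zero point lies. The median log2 fold change of all genes was -0.10 with TMM, -0.02 with RLE factors, -0.59 with the authors' size factors, -0.71 with upper-quartile factors and -0.95 with library size alone. Measured from this median, each gene kept its place under all 5 scalings: ci lay 2.21 above it, ptc and ihog 1.19, and smo 0.39 above it with TMM, while cos lay at -0.11, fu at -0.34, Su(fu) at -0.37 and hh at -0.63. Of the 8 genes, ci alone was called higher under all 5. With library size alone it was the only gene of the 8 called higher, against 22.1% of all genes, and 5 were called lower, against 63.5% of all genes.

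**Figure D1:**
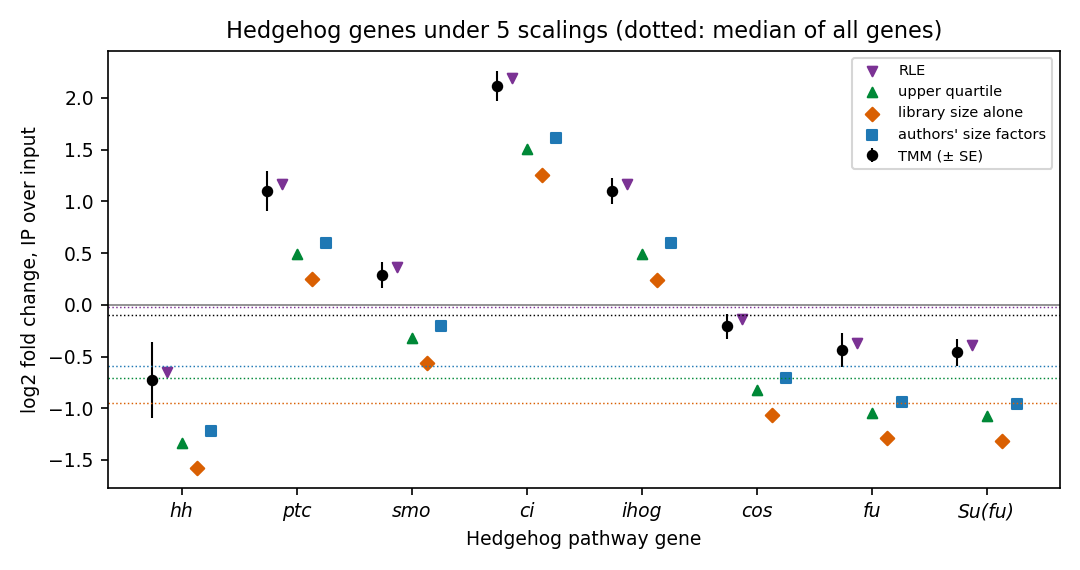
Log2 fold change of IP over input for the 8 Hedgehog genes (x axis) under 5 scalings of the libraries, with the standard error of the TMM value as bars and the median of all tested genes under each scaling as dotted lines. The scaling shifts every gene by the same amount: ci stays above 0 from 1.26 with library size alone to 2.19 with RLE factors, smo changes sign, and cos, fu, Su(fu) and hh stay below 0.

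The ligand gene hh had the lowest level of the 8. Its counts were 16 and 19 in PABP IP 1 and 2 and 12 and 19 in input 1 and 2, or 2.34 and 2.43 CPM in the IP and 3.66 and 4.19 CPM in the input. Both IP libraries lay below both input libraries, but the difference was not called (log2 fold change -0.73 ± 0.37 SE, adjusted p = 0.0842 in edgeR's quasi-likelihood test). The ratio of summed counts scaled by library size was 0.601, with an exact 95% counting interval of 0.360 to 1.01 that covers counting error only, so a change was not detectable at this depth under TMM. It was called lower with the authors' size factors (-1.22), upper-quartile factors (-1.33) and library size alone (-1.58). The base means of the authors' deposited table do not match the 4 libraries, so its standard errors and p-values may rest on more than these libraries. In the authors' deposited table hh is at -1.23 on the log2 scale (adjusted p = 0.0161).

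The co-receptor gene ihog, whose immunoglobulin-family product binds the ligand together with Patched, was at 67.2 and 69.2 CPM in the IP and 31.4 and 32.2 CPM in the input. The libraries of a group lay close together, and the log2 fold change was 1.10 ± 0.13 SE (edgeR adjusted p = 4.7e-07). For the receptor gene ptc the levels were 30.2 and 26.2 CPM in the IP against 11.3 and 14.6 CPM in the input. Its fold change matched that of ihog at log2 1.10 ± 0.19 SE (edgeR adjusted p = 5.94e-05), with a wider error, since input 1 and 2 held 37 and 66 counts. Neither ptc nor ihog was called with library size alone, where their log2 values were 0.25 and 0.24. The authors' deposited table has ptc at 0.62 (adjusted p = 0.296) and ihog at 0.60 (adjusted p = 0.101) on the log2 scale, so neither passed there.

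The gene of the signal transducer Smoothened was detected at 52.9 and 58.9 CPM in the IP and 42.7 and 48.3 CPM in the input. Its log2 fold change of 0.29 ± 0.13 SE was called with an adjusted p of 0.0485 (edgeR) and lost that call with the replicate block (adjusted p = 0.0641), in limma-voom (0.0581) and DESeq2 (0.095), and without PABP IP 2 (log2 0.20), input 1 (0.20) or input 2 (0.37). It turned negative with the authors' size factors (-0.21), upper-quartile factors (-0.32) and library size alone (-0.57). Other genes overlap 25.1% of its span, and reads there may have been shared or dropped in the counting.

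No member of the intracellular complex other than ci was called higher. Levels of cos, the scaffold gene, were 48.9 and 53.9 CPM in the IP and 55.9 and 62.7 CPM in the input, a log2 fold change of -0.21 ± 0.12 SE that was not called (edgeR adjusted p = 0.129). The kinase gene fu was at 19.9 and 19.0 CPM in the IP and 26.2 and 26.5 CPM in the input (log2 -0.44 ± 0.16 SE, edgeR adjusted p = 0.023). Su(fu), whose product binds Ci and restrains it, was at 32.9 and 31.9 CPM in the IP and 45.5 and 43.9 CPM in the input (log2 -0.46 ± 0.13 SE, edgeR adjusted p = 0.00453). The IP libraries lay below the input libraries for all 3 genes, by margins that were small for cos and wider for fu and Su(fu). The call for fu was lost without PABP IP 2 (log2 -0.42), input 1 (-0.45) or input 2 (-0.44), with RLE factors (-0.37), and in DESeq2 (-0.34), and that for Su(fu) was lost in DESeq2 (-0.36). The authors' deposited table has all 3 genes lower, with log2 fold changes of -0.71 for cos (adjusted p = 2.99e-05), -0.94 for fu (adjusted p = 0.00233) and -0.96 for Su(fu) (adjusted p = 9.14e-07). Another gene overlaps 21.2% of the span of fu, and none overlaps cos or Su(fu).

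The pathway's transcription factor gene ci stood apart from cos, fu and Su(fu) in its change between IP and input. It was at 154 and 179 CPM in the IP, from 1049 and 1403 counts, and at 47.0 and 31.3 CPM in the input, from 154 and 142 counts. The 2 input libraries differed by more for ci than for any other of the 8 genes, yet both IP libraries lay more than 3-fold above the higher of them. The log2 fold change was 2.11 ± 0.15 SE (edgeR adjusted p = 7.53e-10) and ranged from 1.81 to 2.40 when each library was left out in turn. This change lay at percentile 89.1 of the 9989 genes tested, while those of ptc and ihog both lay at percentile 76.1. With the authors' size factors, edgeR called 2750 of the 9989 genes tested higher. In the authors' deposited table, ci is the only gene of the 8 that passes in the higher direction, at 1.60 on the log2 scale (adjusted p = 7.65e-12). The gene lies on chromosome 4, where the median log2 fold change was 1.60 over 76 genes tested and 49 of them (64.5%) were called higher, against medians between -0.25 and 0.05 on the other chromosome arms. The pathway gene apolpp, described below, also lies on chromosome 4 and had a log2 fold change of -2.36. Whether the place of ci on that chromosome bears on its value was not tested.

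**Figure D2:**
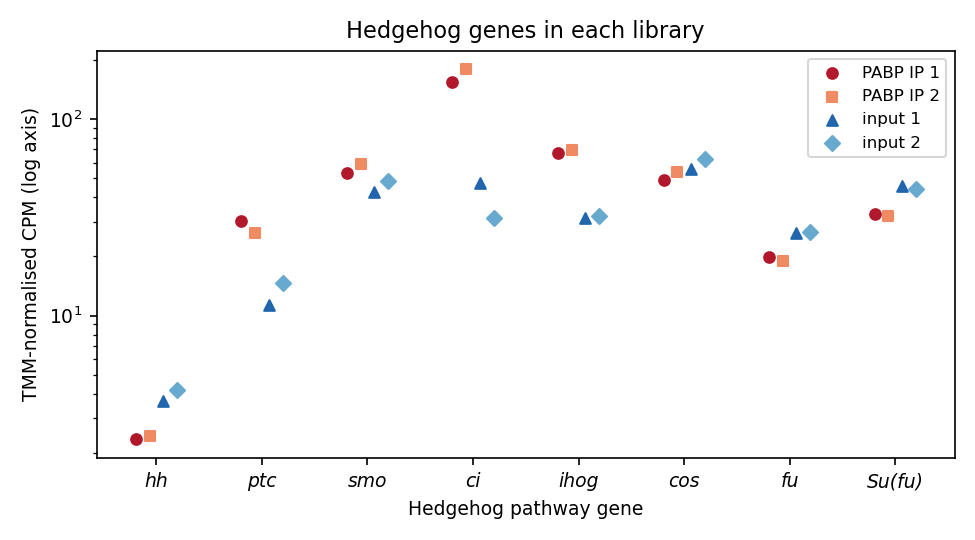
TMM-normalised CPM of the 8 Hedgehog genes (x axis) on a log axis, 1 point for each of the 4 libraries. The IP points of ci at 154 and 179 CPM are far above the input points at 47.0 and 31.3, hh is below 5 CPM in every library, and the points of smo and cos lie close together.

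The make-up of the pathway's counts within a library does not depend on any scaling between libraries. The 8 genes together took 0.0310% and 0.0321% of all counts in PABP IP 1 and 2 and 0.0351% and 0.0357% in input 1 and 2, similar totals made up differently. Counts of ci were 37.7% of the total of the 8 genes in PABP IP 1 (exact 95% binomial interval 35.8% to 39.5%) and 40.7% in PABP IP 2 (39.0% to 42.3%), against 17.8% in input 1 (15.3% to 20.5%) and 11.9% in input 2 (10.1% to 13.9%). The intervals of the IP libraries do not reach those of the input libraries, although the 2 input values also lie apart. An exact two-sided permutation test of 2 libraries against 2 cannot give a p below 0.333, the value obtained here.

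The shares of the regulators of Ci were smaller in the IP. Su(fu) took 7.66% ± 0.588 of these counts in the IP against 16.9% ± 0.419 in the input (mean ± SD of 2 libraries, here and below), cos took 12.1% ± 0.17 against 22.5% ± 1.83, and fu took 4.60% ± 0.399 against 9.998% ± 0.0623. The share of ihog was larger in the IP, at 16.1% ± 0.544 against 12.1% ± 0.209. For ptc the values were 6.67% ± 1.03 and 4.90% ± 0.877, a gap of about the size of the spread between replicates. Shares of smo were 13.2% ± 0.283 and 17.3% ± 1.501, and those of hh 0.562% ± 0.0168 and 1.49% ± 0.142. Since shares sum to the whole, a larger share of ci lowers the others.

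**Figure D3:**
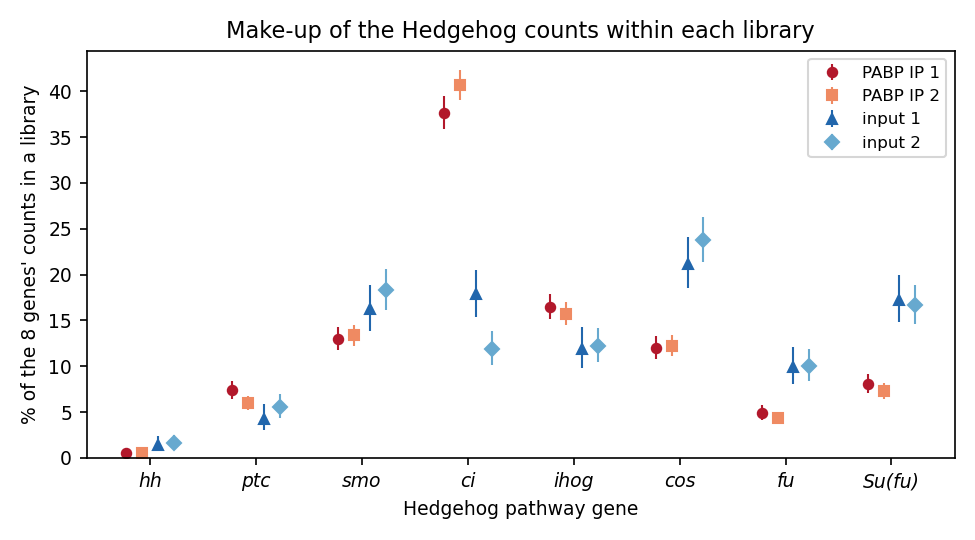
Percent of the counts of all 8 Hedgehog genes that each gene (x axis) took in a library, with exact 95% binomial intervals as bars, for PABP IP 1 and 2 and input 1 and 2. The ci points at 37.7% and 40.7% in the IP stand above 17.8% and 11.9% in the input, and cos, fu and Su(fu) lie lower in the IP than in the input.

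Ratios of pairs of genes avoid that dependence. Counts of ci were 4.66 and 5.61 times those of Su(fu) in PABP IP 1 and 2 and 1.03 and 0.714 times in input 1 and 2. Relative to smo, ci was at 2.91 and 3.04 in the IP and at 1.10 and 0.648 in the input, and relative to ptc it was at 5.09 and 6.84 in the IP and at 4.16 and 2.15 in the input. The ratio of ptc to smo was 0.571 and 0.445 in the IP and 0.264 and 0.301 in the input, so the counts of the receptor gene stood higher beside those of smo in both IP libraries. The balance between the cytoplasmic regulators changed far less: Su(fu) to fu was at 1.65 and 1.68 in the IP and 1.73 and 1.66 in the input, which overlap, and cos to fu was at 2.46 and 2.83 against 2.13 and 2.37. These ratios are descriptions of the 4 libraries and were not tested.

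Levels can be set between genes only per length, and the deposited lengths are whole gene spans with introns, which lowers the values of genes with long introns. Per kilobase of span, ihog (20.1 and 20.7 CPM per kb in PABP IP 1 and 2) and Su(fu) (20.6 and 20.003) were highest in the IP and overlapped. After them came ci (16.5 and 19.2), then smo (11.5 and 12.8), cos (9.90 and 10.9), fu (5.77 and 5.52), ptc (1.94 and 1.68) and hh (0.171 and 0.177); of these neighbours none overlapped. In the input, Su(fu) led at 28.5 and 27.5 CPM per kb in input 1 and 2, followed by cos (11.3 and 12.7), smo (9.32 and 10.5), ihog (9.40 and 9.63), fu (7.61 and 7.68), ci (5.04 and 3.36), ptc (0.725 and 0.935) and hh (0.267 and 0.305), with only smo and ihog overlapping. By this measure, which counts introns, ci was below fu in the input and above smo, cos and fu in the IP. On the same measure ihog, level with smo in the input, was level with Su(fu) at the top in the IP. The order by transcript length was not tested.

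Some genes had nearly the same levels in the 4 libraries, as measured by the root mean square difference in log2(CPM + 0.5). Nearest to ci was Crk, an adaptor gene, at a difference of 0.13. Nearest to ihog was Vps45, a gene of vesicle traffic, at 0.027, and nearest to smo was RtcB, a gene of RNA ligation, at 0.061. Prp3, a splicing factor gene, lay 0.072 from cos. The nearest genes to ptc, hh, fu and Su(fu) were CG5589 (0.079), CG14990 (0.075), CG5516 (0.056) and CG44242 (0.061). With 4 libraries in 2 groups, likeness of this kind reflects level and fold change only.

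The wider pathway was described through 43 further genes in 4 lists, of which 42 could be tested. The lists were chosen with earlier results of these data known, so the shares called are descriptions only. Of the 42 genes, 33 were called higher in the IP, 5 lower and 4 neither, with a median log2 fold change of 1.66, against 37.1% higher and 38.8% lower of all genes and a median of -0.10. Most of these genes act in several pathways besides Hedgehog, so their values are not specific to it.

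Genes of the kinases, ubiquitin ligase subunits, phosphatases and other factors that act on Ci or Smoothened were higher in 17 of 18 cases, with a median of 2.14. The coactivator gene nej, the fly CBP, rose from 163 and 157 CPM in the input to 1348 and 1371 CPM in the IP (log2 3.09 ± 0.13 SE, edgeR adjusted p = 8.72e-13). The glycogen synthase kinase gene sgg had a log2 fold change of 2.91 ± 0.13 SE. Pka-C1, the catalytic subunit of protein kinase A that starts Ci phosphorylation, and Pka-R1, a regulatory subunit, had log2 fold changes of 2.86 and 2.75. The gene of the ubiquitin ligase substrate receptor slmb, needed to cut Ci, had one of 1.77 ± 0.11 SE. The values of cos, fu and Su(fu), which act mainly in this pathway, were lower than these, a difference that was not tested. The exception was Pp4-19C, a phosphatase gene, at -0.03 ± 0.11 SE, which was not called, though it was called lower with the authors' size factors (-0.53), upper-quartile factors (-0.64) and library size alone (-0.89).

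All 6 genes acting at the membrane rose in the IP (median log2 fold change 1.85). The arrestin gene krz and the receptor kinase gene Gprk1 had log2 fold changes of 2.74 and 2.73. Gprk2, a kinase that phosphorylates Smoothened, had one of 1.41, and the ubiquitin ligase gene Smurf one of 2.28. The second co-receptor gene boi, a paralog of ihog, was at 93.3 and 83.0 CPM in the IP and 50.1 and 45.0 CPM in the input (log2 0.90 ± 0.12 SE, edgeR adjusted p = 3.68e-06), close to the value of ihog; with library size alone it was at 0.043 and not called. Counts of ihog were 0.721 and 0.834 times those of boi in the IP and 0.628 and 0.716 times in the input, so the balance between the co-receptors changed little. Usp8, a deubiquitinase gene, had the smallest change of the list (0.36 ± 0.10 SE) and fell with library size alone (-0.50) and upper-quartile factors (-0.25); it was not called with the authors' size factors (-0.14) or without input 2 (0.29).

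Genes for making, releasing and spreading the ligand were higher in 8 of 10 cases, with a median of 0.87. The heparan sulphate proteoglycan gene dally rose the most (log2 2.34 ± 0.12 SE), and ttv, which builds heparan sulphate chains, and shf, which encodes an extracellular factor that helps the ligand spread, had log2 fold changes of 1.73 and 1.62. The release factor gene disp was at 74.2 and 67.8 CPM in the IP and 51.6 and 49.0 CPM in the input (log2 0.50 ± 0.12 SE); it was at 0.0015 with the authors' size factors, not called, and its sign turned with upper-quartile factors (-0.11) and library size alone (-0.35). The 2 genes that fell were rasp, the acyltransferase gene that attaches palmitate to the ligand (41.2 and 33.1 CPM in the IP, 62.3 and 62.0 CPM in the input; log2 -0.75 ± 0.13 SE), and the lipoprotein gene apolpp, a product of the fat body (log2 -2.36 ± 0.16 SE). All 3 fat body markers were lower too, and whether that bears on the value of apolpp was not tested.

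Known target genes showed no common direction. Of 8 tested of 9, CycD and upd2 were higher, 3 were lower and 3 were not called, with a median of -0.65. That median rests partly on en, which held few counts. The cyclin gene CycD had a log2 fold change of 2.09 ± 0.11 SE and CycE one of -0.67 ± 0.10 SE. The cytokine gene upd2, linked to Hedgehog signalling in the midgut, held 172 and 236 counts in the IP and 0 and 1 in the input, a ratio of 217 with an exact 95% counting interval of 38.8 to 8603. Its fitted log2 fold change ran from 6.84 without input 1 to 10.37 without input 2, which leaves no input count, so that the second value depends on the prior count and is no bound. The Iroquois gene ara was lower (log2 -2.18 ± 0.42 SE, 8 and 7 counts in the IP), as was its neighbour caup at -1.15, named here after its value was seen. The morphogen gene dpp was at 21.5 and 21.8 CPM in the IP and 14.3 and 19.0 CPM in the input and was not called (log2 0.36 ± 0.19 SE, edgeR adjusted p = 0.0932), but it was called higher with RLE factors (0.43) or no filter on low counts (0.42) and lower with library size alone (-0.50). The homeobox gene en, the classical embryonic target, held 4 and 8 counts in the IP and 4 and 6 in the input, too few to show a difference, and ptc, itself a target, is given above.

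**Figure D4:**
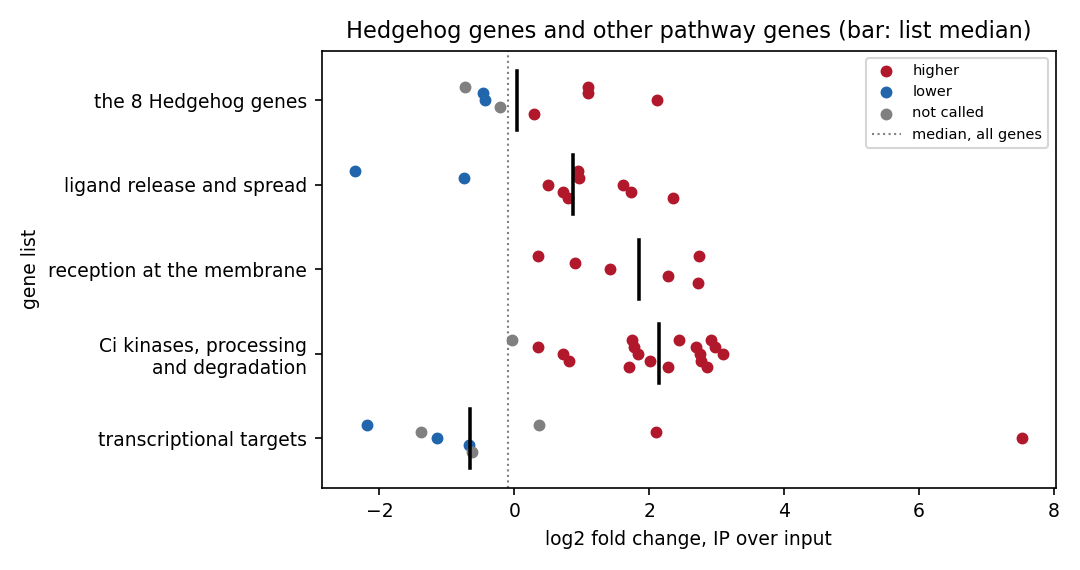
Log2 fold change of IP over input (x axis) for the 8 Hedgehog genes and the tested genes of 4 further pathway lists (rows), coloured by the call at an adjusted p of 0.05, with a black bar at each list's median and a dotted line at the median of all genes (-0.10). The 18 genes acting on Ci lie almost all to the right of 0, around a median of 2.14, while the 8 Hedgehog genes spread to both sides of a median of 0.04.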

How the data were processed

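Per the submitters' processing notes, reads were handled with cutadapt 2.9, STAR 2.7.3a, SAMtools 1.10 and featureCounts of Subread 2.0.0, and compared with DESeq2. The genome build is not given in the sources used here, nor are strandedness and duplicate handling. The deposited counts are raw numbers of reads for each gene. The gene length listed with them, per the file headers, was that of the gene from end to end, introns included, for 99.7% of 16984 symbols found in RefSeq's gene table (assembly Release 6). The authors' deposited DESeq2 table holds log2 fold changes with standard errors, Wald scores, raw and adjusted p-values, and a normalized signal for each library, the count divided by a size factor of 3.22 or 3.68 (IP) and 1.09 or 1.51 (input).

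The main test was edgeR's two-sided quasi-likelihood test (version 4.0.16, R 4.3.3) on the 9989 genes that passed filterByExpr at a minimum count of 10. Libraries were scaled by TMM (IP factors 0.760 and 0.728, input factors 1.33 and 1.36), and p-values were adjusted over all these genes by Benjamini-Hochberg, with 0.05 as threshold. Standard errors were derived from the F statistic. CPM values are counts over the TMM library size. Neither replicate pair was a duplicate deposit: chi-square over degrees of freedom was 7.93 (IP) and 2.85 (input). An unnamed row, 0.000418% of the counts or less, was dropped. The labels do not say whether equal replicate numbers mark paired libraries. The correlation of deviations was -0.0897, which with 2 libraries in a group cannot decide it. The test was also run on simulated counts with known changes in a small part of the genes. In these data 75.9% of genes were called, so that run cannot show how the test behaves here. The 8 genes and the pathway and marker lists were chosen with earlier results of these data known. All 8 were named; from each pathway list the 4 genes with the lowest p, the gene nearest to no change, and boi, disp, rasp, Pka-C1, slmb and upd2 were named, and for each of the 8 the tested gene nearest in level. The 14 alternatives were other scalings, filters, DESeq2 1.42.0, limma-voom from limma 3.58.1, a replicate block, a threshold of 0.01, and leaving out each library. Intervals cover counting error only. Tables were made in Python 3.11.15 with pandas 2.3.3 and scipy 1.17.1.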

Additional observations from a re-analysis of the deposited data

How the results depend on the processing

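The calls for ci held under all 14 alternatives, and those for ptc and ihog under all but library size alone (0.25 and 0.24 on the log2 scale). The number of the 8 genes called higher, 4 in the report, was 1 with library size alone and 3 to 4 with 1 library left out. The number called lower, 2 in the report, was 5 with upper-quartile factors and with library size alone, 4 with the authors' size factors, 1 with RLE factors, with no filter on low counts and at an adjusted p of 0.01, 0 in DESeq2 (where 6489 genes had an unadjusted p under 0.05), and 1 to 2 with 1 library left out. Over all genes, 2209 were higher and 6347 lower with library size alone, and 2512 lower in DESeq2, against 3708 and 3873. Of the 9989 genes tested, 5719 were lower with upper-quartile factors, 5384 with the authors' size factors and 3651 with RLE factors. At an adjusted p of 0.01, 3233 were lower, and with no filter 3692 of 12967. The counts of the 8 genes are to be read beside these. Of the other pathway genes, 9 were lower with upper-quartile factors and 12 with library size alone. With upper-quartile factors, library size alone and the authors' factors, hh was called at -1.33, -1.58 and -1.22, and cos at -0.82, -1.06 and -0.71. The log2 fold change of smo turned to -0.32, -0.57 and -0.21 under the same 3 scalings, and its call was lost at an adjusted p of 0.01 (0.29), in limma-voom (0.29), in DESeq2 (0.40) and without PABP IP 2, input 1 or input 2; with 1 library left out its values ran from 0.20 to 0.38, and the highest, without PABP IP 1, kept the call. The call for fu was lost with RLE factors (-0.37), with no filter (-0.37), in DESeq2 (-0.34), at an adjusted p of 0.01 (-0.44) and without PABP IP 2, input 1 or input 2 (range with 1 library left out -0.45 to -0.42; kept without PABP IP 1), and that for Su(fu) in DESeq2 (-0.36). Signs turned for disp (-0.11 and -0.35) with upper-quartile factors and library size alone, and for Usp8 (-0.25, -0.50 and -0.14) and dpp (-0.25, -0.50 and -0.14) with these and the authors' factors. Not called in the report, dpp was called higher with RLE factors (0.43) and with no filter (0.42) and lower with library size alone. Pp4-19C, near no change, was at 0.041 with RLE factors, 0.033 with no filter, 0.072 in DESeq2 and -0.13 to 0.059 with 1 library left out, and was called lower with upper-quartile factors (-0.64), library size alone (-0.89) and the authors' factors (-0.53). A fit with the replicate number as a block left smo at 0.29 with its call lost and kept the direction and call of each of the other 7 genes. Whether the numbers pair the libraries is not known. Under the other scalings, the median of all genes moved along with these values. The cause of the changes under any alternative was not tested. Depth limits hh, en, ara, kn and wg most, with at most 24 counts in any library.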

Other observations

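In the authors' deposited table the base mean of a gene is not the mean of the 4 library columns beside it: the values lay within 1% of each other for 1.30% of genes. For hh the base mean was 43.1 against a mean of 8.43 over the 4 libraries, for ci it was 125 against 236, and for ihog 63.9 against 120. For ptc, cos, fu and Su(fu) the base mean was 0.936 to 1.04 times the mean over the 4 libraries. Which libraries entered that fit was not tested, so its p-values may not rest on the 4 libraries alone. The fold changes of the same table match those obtained here with the authors' size factors, at 1.60 and 1.62 for ci and -1.23 and -1.22 for hh, and 4 of the 8 Hedgehog genes pass as lower in it (hh, cos, fu and Su(fu)) against 1 that passes as higher.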
